A study of Mus musculus with 80 samples.

Results

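Described here are 9 genes, the long noncoding RNAs Malat1, Neat1, Meg3, Kcnq1ot1, Miat, Rian, Mirg, Snhg11 and Airn, most of them known as RNAs that stay in the nucleus. They were taken by gene symbol from the gene tables of a comparison of microglial sorting methods and of a comparison of brain preparations, where they are 9 of 15919 and 9 of 16000 genes. The 9 had been chosen for their low level in ribosome-bound RNA relative to the lysate RNA from which it was drawn, in the same mouse. That ratio is therefore given as a description without a test. Levels between preparations were tested, although the choice was made with earlier results of these data in view.

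All 80 libraries came from the brains of mice with the genotype Cx3cr1(Jung)-cre/Ert2+;NuTRAP+. Tamoxifen at about 3 months of age turned on the NuTRAP allele in cells that expressed the Cx3cr1 driver, which put eGFP on their ribosomes and biotin and mCherry on their nuclei, and the brains of both sexes were taken at 5 to 8 months. The driver also marks border macrophages. Each preparation of each mouse gave a pair of libraries. Input was the lysate before the pull-down, made in a buffer with the detergent NP-40 and cleared by centrifugation. TRAP (translating ribosome affinity purification) was the RNA bound to anti-GFP beads. How much of the nuclear RNA stayed in the cleared lysate of each preparation is not known here. In the sort comparison the groups were Tissue (a hemisphere homogenized directly), Cell (a papain-based suspension with a warm digestion step, not sorted), autoMACS (CD11b magnetic beads), Tyto and FACSAria (fluorescent sorters) and autoMACS to Tyto (beads and then sorter), with 4 mice a group apart from 3 for autoMACS to Tyto and 5 for Tyto. In the preparation comparison, with 4 mice a group, Tissue was set beside Cell (-) Inhibitors and Cell (+) Inhibitors, which were digested without and with actinomycin D, triptolide and anisomycin, and beside Dounce, a mechanical dissociation of a whole brain in the cold followed by a Percoll gradient. Tissue and Cell of the sort comparison share all their mice, as do Cell (-) and Cell (+) Inhibitors, and some sorted groups share part of theirs. In the Dounce comparisons, in Cell (-) Inhibitors against Tissue and in the sorted groups against Cell the mice differ, so that preparation and mouse cohort cannot be told apart there. The Dounce libraries also carry sample numbers of their own and are not among the 24 libraries of an earlier version of the preparation comparison. A difference between sets of libraries thus cannot be told apart from the Dounce preparation. Mice 946 to 949 gave the Tissue libraries of both comparisons. Mice 66, 67 and 73 gave libraries to both autoMACS and autoMACS to Tyto, and mice 69, 945 and 991 to both Tyto and FACSAria. These were treated as separate samples, also in the test between the sorts.

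Total counts per library were 7129464 to 20168116 in the sort comparison and 2471448 to 14650287 in the preparation comparison, where Dounce-TRAP was the shallowest group. Summed microglial markers rose from 238 to 364 CPM (counts scaled to a common library size by TMM) in Tissue-Input to 4313 to 5673 CPM in Cell-Input and 32580 to 35570 CPM in Cell-TRAP. Summed neuronal markers lay at 7146 to 7604 CPM in Tissue-Input and 7017 to 8108 CPM in Tissue-TRAP, against 492 to 1095 CPM in Cell-Input and 27.4 to 76.9 CPM in the sorted Inputs. In bulk RNA, fewer cells of a type and less RNA per cell cannot be told apart. A set of 6 libraries was picked by eye, with no fixed rule and after the values were seen, because Malat1 or others of the 9 RNAs stood high in them beside the rest of the group. These were autoMACS-Input of mouse 72, autoMACS-TRAP of mouse 73, autoMACS to Tyto-TRAP of mouse 66, Cell (-) Inhibitors-Input of mouse 1361 and Tissue-TRAP of mouse 947 in each table, and results that rest on them are given with and without them.

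Long noncoding RNAs are transcribed and processed much like messenger RNAs but are not templates for long proteins, and many act where they are made. Malat1 is an abundant RNA of nuclear speckles, the bodies that store splicing factors, and Neat1 is the scaffold of paraspeckles, bodies that hold RNA-binding proteins and some edited RNAs. Meg3, Rian and Mirg are maternally expressed RNAs of the imprinted Dlk1-Dio3 locus, and Rian and Mirg are hosts of small nucleolar RNAs and microRNAs. Kcnq1ot1 and Airn are paternally expressed antisense RNAs that silence imprinted neighbours in cis. Miat (also known as Gomafu) forms nuclear bodies of its own in neurons and binds the splicing factor SF1, and Snhg11 is a host of small nucleolar RNAs with a spliced, neuron-enriched transcript.

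In the mm10 build, Malat1 (chr19:5795690-5802671, minus strand) and Neat1 (chr19:5842302-5845478, minus strand) are neighbours. The deposited Neat1 entry spans 3177 bases and so holds the short form, whereas the long annotated transcript has 20771 bases. Meg3 (chr12:109540996-109571729), Rian (chr12:109603945-109661711) and Mirg (chr12:109734981-109749457) follow each other on the plus strand, with 2, 4 and 11 annotated microRNAs inside their spans and 13 small nucleolar RNAs inside that of Rian. Kcnq1ot1 (chr7:143213111-143296547, minus strand) lies antisense within Kcnq1, and Airn (chr17:12741311-12859884, plus strand) overlaps Igf2r and Mas1 on the other strand. Miat is at chr5:112213228-112228948 on the minus strand and Snhg11 at chr2:158375638-158386145 on the plus strand. The deposited gene type of Snhg11 is protein-coding, and that of the other members is miscRNA. The libraries were directional and the alignment took account of strand, while it is not given in the sources used here whether the counts of Kcnq1ot1 and Kcnq1, or of Airn and its partners, were separated by it. Rian and Airn also share bases with a gene model on the same strand, Gm26945 and Gm16574.

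The libraries were made from RNA selected on oligo(dT), so adenine runs inside a transcript are of interest beside the levels. Of the 9, 4 hold an internal run of at least 12 adenines, and the longest run of each is shown from the GENCODE transcripts (GRCm38, the same assembly as mm10) with the run in capitals and up to 30 bases before and 15 after it.
Malat1, chr19:5795973-5796029, minus strand: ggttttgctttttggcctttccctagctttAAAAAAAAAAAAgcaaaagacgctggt
Meg3, chr12:109545787-109545847, plus strand: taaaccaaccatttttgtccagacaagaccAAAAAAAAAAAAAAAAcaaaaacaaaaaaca
Kcnq1ot1, chr7:143226930-143227015, minus strand: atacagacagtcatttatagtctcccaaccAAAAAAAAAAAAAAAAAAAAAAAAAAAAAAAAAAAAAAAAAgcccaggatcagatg
Rian, chr12:109652199-109652258, plus strand: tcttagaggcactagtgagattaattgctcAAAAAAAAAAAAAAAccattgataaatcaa
The runs are 12, 16, 41 and 15 bases long, and Kcnq1ot1 holds 8 runs of at least 12 and Meg3 3. Such a run is present in 3.75% of 15671 annotated long noncoding transcripts and in 3.84% of protein-coding ones. It is more frequent in long ones, with 17.3% of 625 long noncoding transcripts of like length to Malat1, 18% of 350 to Rian and 44.1% of 34 to Meg3. Only 3 were of like length to Kcnq1ot1, and 100% of them held such a run. These sets did not exclude the RNA's own transcripts. In Neat1, Miat, Mirg, Snhg11 and Airn the longest run has 7, 4, 5, 8 and 4 adenines.

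Miat carries copies of TACTAAC, the branch point sequence bound by SF1, and the stretch below, with 3 of its 6 copies in capitals, is shown because no other member holds so many.
Miat, chr5:112217309-112217460, minus strand: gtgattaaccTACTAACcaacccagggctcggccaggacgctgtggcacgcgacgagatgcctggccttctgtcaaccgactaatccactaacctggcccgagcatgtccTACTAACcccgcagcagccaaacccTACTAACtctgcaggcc
The motif was searched on the transcript strand only. As many copies were found in 0.966% of 207 long noncoding transcripts of like length, a set that did not exclude those of Miat itself. Kcnq1ot1 held 4, Neat1 1 and the other 6 none.

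In intact tissue Meg3 was at 1906, 2351, 2110 and 2252 CPM in Tissue-Input of mice 946 to 949, a mean of 2154 ± 193 (SD, n = 4), Snhg11 at 796 ± 59.6, Malat1 at 391 ± 63.7, Rian at 313 ± 22.9 and Miat at 246 ± 24.8 CPM. Kcnq1ot1 was at 121 ± 18.3, Neat1 at 56.1 ± 5.25, Mirg at 6.64 ± 1.17 and Airn at 0.955 ± 0.486 CPM. Airn rested on only 10 to 36 counts a library there, so its values are the least precise. Summed over the 9, the level fell from 3613 to 4344 CPM in Tissue-Input to 547 to 633 CPM in Cell-Input, with no overlap.

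**Figure D1:**
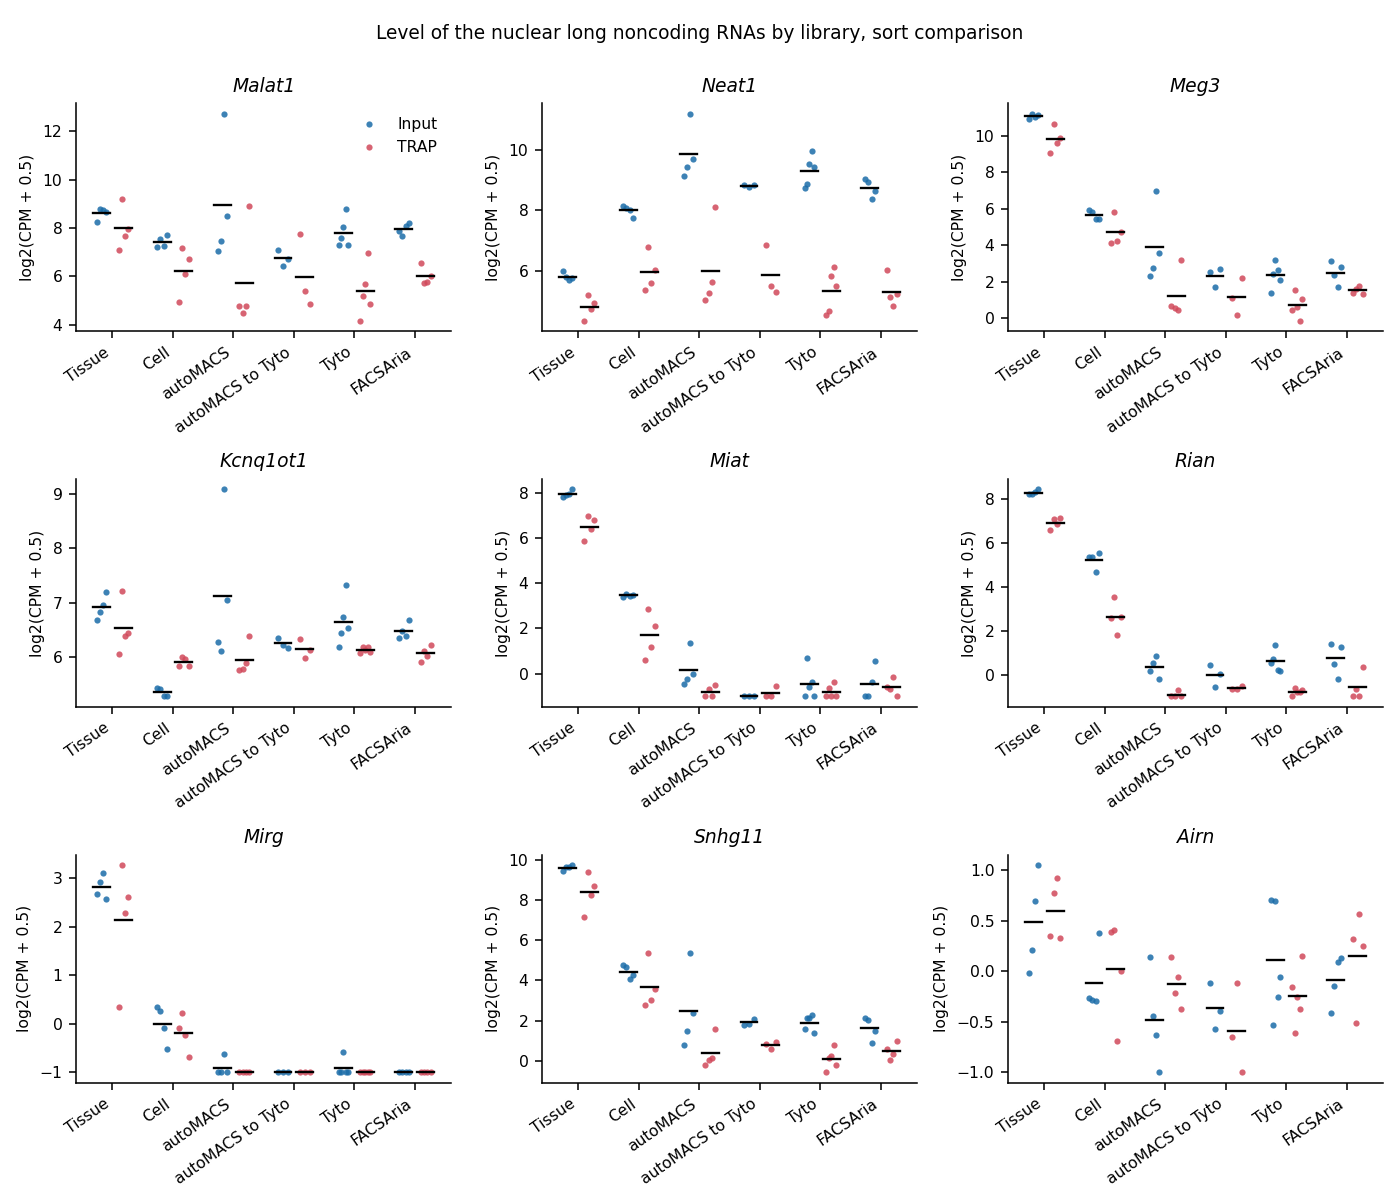
Level of each of the 9 RNAs in every library of the sort comparison. The vertical axis is log2(CPM + 0.5) with its own range for each RNA, each point is 1 library, Input is blue and TRAP red, and lines mark the group means on this scale. Meg3, Rian, Miat, Snhg11 and Mirg are highest in Tissue-Input, whereas Neat1 is lowest in Tissue-TRAP and highest in autoMACS-Input.

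The order of the 12 groups separated these RNAs into distinct patterns. For Meg3, Miat, Rian, Snhg11 and Mirg it ran from Tissue-Input to Tissue-TRAP to Cell-Input. The step from Tissue-Input to Tissue-TRAP and the step from Tissue-TRAP to Cell-Input did not overlap for Meg3, Miat, Rian and Snhg11, and Rian also fell without overlap to Cell-TRAP and then to the sorted groups. For Neat1 the 4 sorted Inputs came highest and all lay above Cell-Input, while neighbours among the sorted Inputs overlapped. Kcnq1ot1 was lowest in Cell-Input, below every library of Cell-TRAP. For Malat1 and Airn each group overlapped the next in the order, so no order of neighbours was resolved.

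From intact tissue to the unsorted cell suspension, 1 of the 9 RNAs rose in Input and 7 fell. Calls rest on edgeR's quasi-likelihood test of all 15825 genes tested, with an adjusted p (Benjamini-Hochberg) below 0.1 and a fold above 2 required. Of all genes 26.8% were called higher and 19.1% lower in this comparison. The median log2 fold change of the 9 was -3.05, against 0.07 for all genes. Neat1 was the one that rose. It was at 63.8, 55.1, 51.9 and 53.7 CPM in Tissue-Input and at 281, 271, 261 and 216 CPM in Cell-Input of the same mice. The groups did not overlap, and the log2 fold change was 2.20 (SE 0.47, edgeR adjusted p = 7.83e-05).

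Of the Dlk1-Dio3 RNAs, Meg3 was at 60.8, 55.9, 42.7 and 42.9 CPM in Cell-Input, a log2 change of -5.41 from the tissue values above (SE 0.65, edgeR adjusted p = 1.02e-09). Rian was at 297, 296, 315 and 345 CPM in Tissue-Input and at 40.5, 40.8, 24.8 and 45.5 CPM in Cell-Input, a change of -3.05 (SE 0.26, edgeR adjusted p = 5.29e-14). Mirg, with 121 to 174 counts a library in Tissue-Input and 4 to 14 in Cell-Input, changed by -3.64 (SE 0.61, edgeR adjusted p = 9.77e-06). All 3 were lower in every Cell-Input library than in any Tissue-Input library. The neuron-enriched Snhg11, at 715, 808, 802 and 859 CPM in tissue and 26.4, 24.7, 16.3 and 18.9 CPM in the suspension, changed by -5.21 (SE 0.57, edgeR adjusted p = 7.41e-11). Miat was at 224, 235, 244 and 281 CPM in Tissue-Input and at 10.1, 11, 10.3 and 10.6 CPM in Cell-Input, a change of -4.55 (SE 0.36, edgeR adjusted p = 1.69e-14). All 10 neuronal markers fell in the same comparison, with a median of -3.15, and their part in the result was not tested.

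The antisense RNA Kcnq1ot1 fell by 1.59 (SE 0.33, edgeR adjusted p = 5.43e-05), from 102, 114, 124 and 145 CPM to 42.4, 42.2, 38.6 and 38.2 CPM. Airn changed by -1.10 (SE 0.55, edgeR adjusted p = 0.071) with overlapping groups, and the call was lost, at -1.02 to -0.76, on leaving out Cell-Input of mouse 946, 947 or 948 or Tissue-Input of mouse 948 or 949. Malat1 was at 299, 439, 426 and 402 CPM in Tissue-Input and at 149, 186, 153 and 207 CPM in Cell-Input. These values did not overlap, but its change of -1.17 (SE 0.83) was not called, with an edgeR adjusted p of 0.202. The spread shared over the 12 groups includes autoMACS-Input of mouse 72, at 6745 CPM. Without the 6 libraries that stood apart, the same change had an edgeR adjusted p of 0.00748. In a fit of Tissue-Input and Cell-Input only, Malat1 changed by -1.21 (edgeR adjusted p = 9.19e-06). With the mouse added to that fit as a replicate block, since these groups share their mice, Malat1 changed by -1.20 (edgeR adjusted p = 1.04e-05). All 9 RNAs were called with the block.

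In the sorted cells the 9 split further. Against Cell-Input, 2 of the 9 were called higher and 5 lower over the 4 sorted Inputs, where 22.8% of all genes were called higher and 32.7% lower, and the median was -2.36 against 0.14 for all genes. Of all calls 41.1% were higher, but 25.7% with DESeq2 size factors and 24.1% with total counts. Neat1 and Kcnq1ot1 were the 2 that were higher, by 1.25 (SE 0.39, edgeR adjusted p = 0.00331) and 1.43 (SE 0.29, edgeR adjusted p = 1.79e-05). Both fell under the fold of 2 with other scalings of the libraries, at 0.77 and 0.94 with DESeq2 size factors and at 0.71 and 0.89 with total counts. Neat1 was at 557, 691, 2324 and 821 CPM in autoMACS-Input of mice 66, 67, 72 and 73, at 459, 433 and 458 CPM in autoMACS to Tyto-Input, at 425 to 984 CPM in Tyto-Input and at 328 to 527 CPM in FACSAria-Input. Every one of these was above the highest Cell-Input library, at 281 CPM. Kcnq1ot1 was at 77.1, 68.4, 539 and 131 CPM in autoMACS-Input, at 71.6 to 81.5 CPM in autoMACS to Tyto-Input, at 72.1 to 160 CPM in Tyto-Input and at 81.4 to 102 CPM in FACSAria-Input, again above every Cell-Input library. In both RNAs mouse 72 was the highest.

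Meg3, Snhg11 and Rian fell further on sorting. Meg3 was at 4.39, 6.11, 126 and 11.2 CPM in autoMACS-Input, where mouse 72 stood alone, at 2.74 to 5.87 CPM in autoMACS to Tyto-Input, at 2.06 to 8.47 CPM in Tyto-Input and at 2.81 to 8.21 CPM in FACSAria-Input. Its change was -2.65 (SE 0.43, edgeR adjusted p = 4.69e-07), and -3.24 without the libraries that stood apart. Snhg11 changed by -2.36 (SE 0.42, edgeR adjusted p = 2.07e-06) and Rian by -5.46 (SE 0.23, edgeR adjusted p = 1.05e-24), with Rian between 0.171 and 2.15 CPM in every sorted Input. Miat was at no more than 2.03 CPM and Mirg had 0 to 2 counts in each sorted library. Both were called lower (edgeR adjusted p = 5.39e-16 and 3.36e-06), without a fold because most of these libraries were at or under 3 counts. The 10 neuronal markers fell, with a median of -4.50, and the 10 astrocyte, 10 oligodendrocyte and 10 endothelial markers were all lower as well.

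Malat1 did not follow either group. Over the 4 sorts it changed by 0.94 (SE 0.69, edgeR adjusted p = 0.205), and by 0.17 without the libraries that stood apart. In autoMACS-Input it was at 131, 178, 6745 and 356 CPM, so that a single library, from mouse 72, carried a called rise of 3.41 in that sort alone (edgeR adjusted p = 0.000693). In autoMACS to Tyto-Input it was at 136, 86.6 and 105 CPM, in Tyto-Input at 155 to 438 CPM and in FACSAria-Input at 206 to 298 CPM.

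The 4 sorts were compared with each other in 1 test per fraction, with no term for the mice that some sorts share. In Input, 5 of the 9 differed (Malat1, Neat1, Meg3, Kcnq1ot1 and Snhg11), where 10.7% of all genes were called, and the widest gap between sorts was 4.08 on the log2 scale for Malat1 (edgeR adjusted p = 0.00166). Each of the 5 had its highest mean in autoMACS-Input, and without mouse 72 of that group none was called. That library also held the lowest summed microglial markers of the sorted Inputs, 22230 CPM, where the others were at 32960 to 40750 CPM. In TRAP none of the 9 was called by edgeR, where 3.39% of all genes were, 1 (Neat1) had an unadjusted p under 0.05, and limma and DESeq2's likelihood ratio test called none.

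In TRAP, the fraction drawn from eGFP-tagged ribosomes, the step from tissue to cells gave 1 RNA higher and 6 lower, where 23.8% of all genes were higher and 29.5% lower. The median of the 9 was -3.67, against -0.05 for all genes. Meg3 was at 536, 1581, 768 and 951 CPM in Tissue-TRAP and at 17, 54.8, 18.5 and 25.7 CPM in Cell-TRAP, and changed by -5.06 (SE 0.65, edgeR adjusted p = 3.22e-09). Miat (-4.84, SE 0.39), Snhg11 (-4.59, SE 0.56), Rian (-4.30, SE 0.29) and Mirg (-3.67, SE 0.65) fell with it. All 10 neuronal markers fell in the same comparison, with a median of -4.98.

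Neat1 rose in TRAP from 20.2, 36.3, 26.7 and 30.6 CPM in tissue to 41.2, 111, 48.8 and 65.3 CPM in cells, by 1.22 (SE 0.48, edgeR adjusted p = 0.0191), without overlap. This call was lost with DESeq2 size factors and with total counts, under which the median of all genes lay at -0.38 and -0.35 and 33.8% and 34.7% of all calls were higher, instead of 44.6%. Malat1 changed by -1.77 (SE 0.85, edgeR adjusted p = 0.0561), a call that was lost on leaving out Tissue-TRAP of mouse 947 (-1.17) or Cell-TRAP of mouse 946 (-1.49) or 948 (-1.68). That of Neat1 was also lost without Cell-TRAP of mouse 947 (0.86). Kcnq1ot1 (-0.68) and Airn (-0.90) were not called, but passed with DESeq2 size factors, at -1.01 and -1.22.

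Between Cell-TRAP and the sorted TRAP libraries, none of the 9 was called higher by edgeR, DESeq2 or limma, and 0 were higher at an unadjusted edgeR p under 0.05. Of all 15825 genes only 134 were called higher. Of the 9, 5 were lower, where 24.4% of all genes were, with Meg3 at -3.83 (SE 0.48, edgeR adjusted p = 4.98e-09) and Snhg11 at -4.13 (SE 0.49, edgeR adjusted p = 1.24e-09). Rian, Miat and Mirg were also called, and as their sorted TRAP libraries mostly held 3 counts or fewer no fold is given. The values of the speckle and paraspeckle RNAs and of Kcnq1ot1 lay close to those in Cell-TRAP, with changes of -0.08 for Malat1, -0.17 for Neat1 and 0.17 for Kcnq1ot1, and edgeR adjusted p of 0.94, 0.733 and 0.62. Without the libraries that stood apart Malat1 changed by -1.05 and Neat1 by -0.66. Those left out here were all sorted libraries, picked for high values, so that leaving them out lowers both changes. No call is therefore read from these values.

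**Figure D2:**
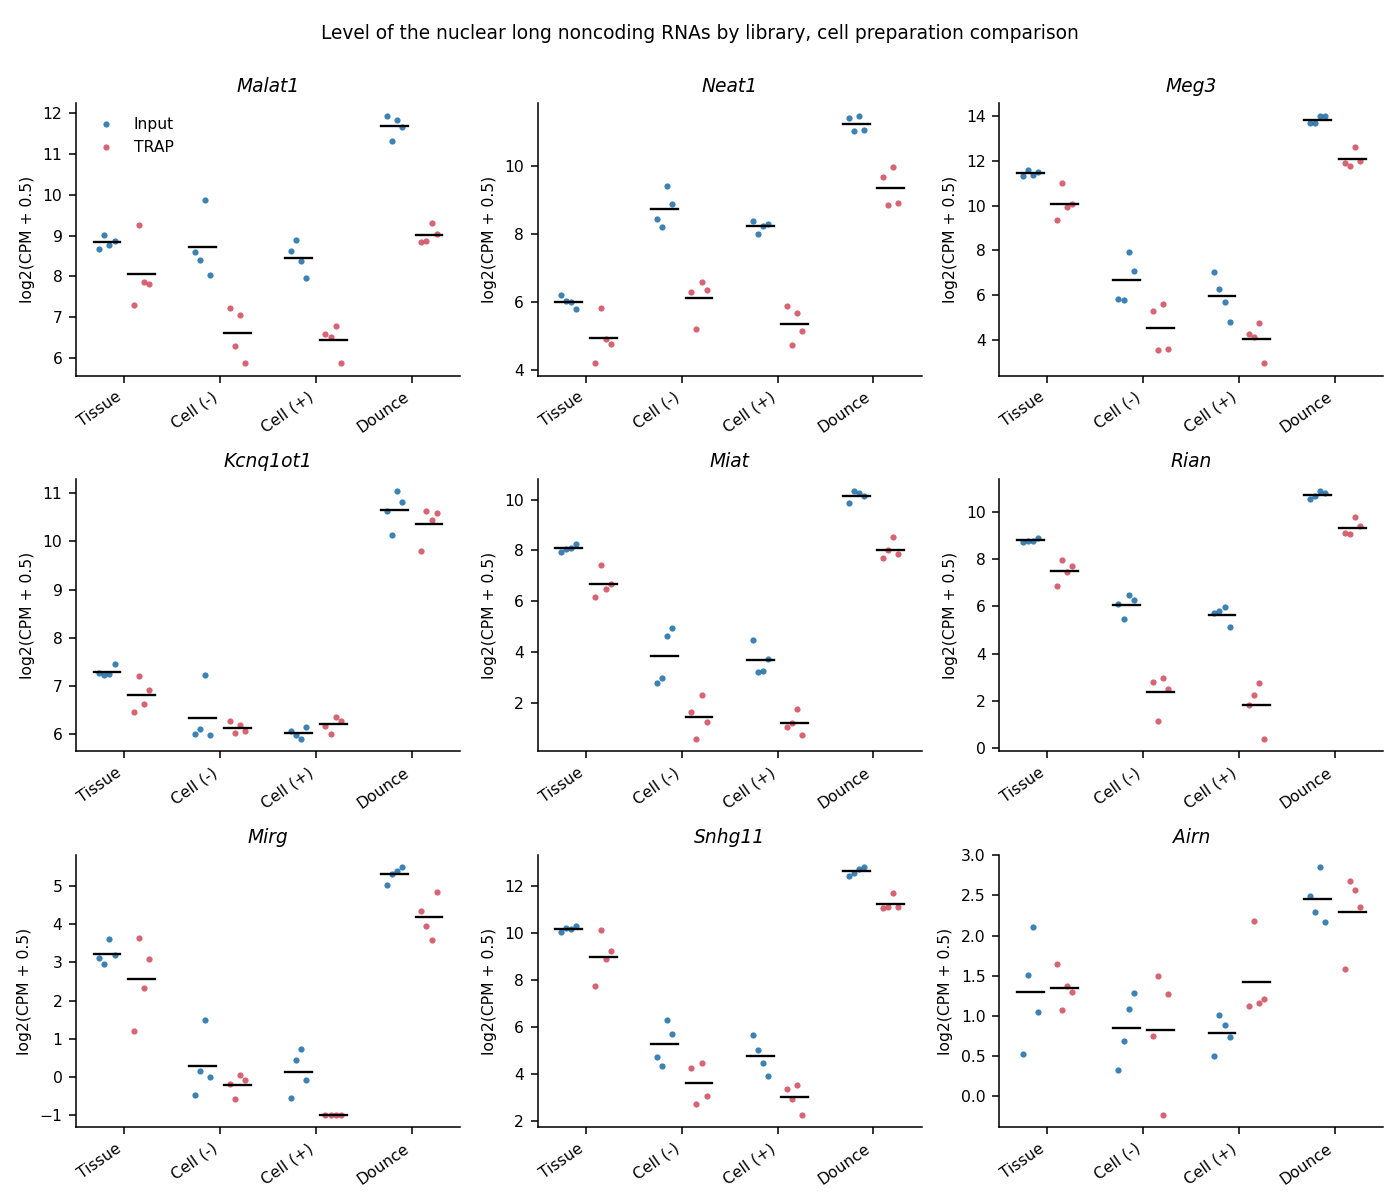
Level of each of the 9 RNAs in every library of the preparation comparison. The vertical axis is log2(CPM + 0.5) with its own range for each RNA, each point is 1 library, Input is blue and TRAP red, and lines mark the group means on this scale. Dounce-Input has the highest mean of all 8 groups for each of the 9 RNAs.

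In the preparation comparison the cold mechanical dissociation gave the highest Input level of all 9 RNAs. Of the counts in Dounce-Input, 3.43 to 4.39% came from these 9 genes, compared with 0.5005 to 0.593% in Tissue-Input of the same table. In Dounce-TRAP the share was 0.886 to 1.45%. Against Tissue-Input, all 9 were called higher in Dounce-Input, with no overlap between the groups for any of them, where 24.8% of all genes were called higher. The median log2 fold change of the 9 was 2.39, against -0.10 for all genes, and 49% of all calls were higher (57.1% with DESeq2 size factors and 60.1% with total counts). By the study's own quality measurements the RNA of Dounce-Input was the least intact of the Input groups measured. The study also reports reads more biased to the downstream end of genes in Tissue and Dounce than in both Cell groups, in Input and TRAP. The part of RNA integrity and of this bias in the differences between preparations was not tested.

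Neat1 changed most. It was at 72.4, 63.8, 62.7 and 55.1 CPM in Tissue-Input and at 2711, 2089, 2852 and 2111 CPM in Dounce-Input of mice 179 to 182, which is 38.4-fold higher (log2 5.26, SE 0.35, edgeR adjusted p = 1.82e-14). Kcnq1ot1 was at 153, 150, 153 and 175 CPM in Tissue-Input and at 1591, 1116, 2096 and 1795 CPM in Dounce-Input, 10.5-fold higher (log2 3.39, SE 0.23, edgeR adjusted p = 2.94e-14). Malat1 rose from 409, 515, 439 and 469 CPM to 3914, 2557, 3649 and 3242 CPM, 7.29-fold (log2 2.87, SE 0.36, edgeR adjusted p = 2.48e-08). These 3 RNAs had larger fitted changes than the other 6. Kcnq1, which lies over Kcnq1ot1 on the opposite strand, changed by -1.20 and was not called (SE 0.80, edgeR adjusted p = 0.181).

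The 5 RNAs that had fallen with the neuronal markers from tissue to cells rose here. Meg3 was at 2538, 3113, 2670 and 2944 CPM in Tissue-Input and at 13070, 13120, 16610 and 16310 CPM in Dounce-Input, a rise of 2.39 (SE 0.47, edgeR adjusted p = 4.25e-05). Snhg11 rose from 1030, 1182, 1139 and 1238 CPM to 5387, 5925, 6695 and 7046 CPM, by 2.45 (SE 0.41, edgeR adjusted p = 4.48e-06). Of the 10 neuronal markers 7 fell in this comparison, with a median of -1.41, and Nefl and Nefm (neurofilament subunits) changed by -3.80 and -3.71. Mirg rose by 2.13 (SE 0.42), Miat by 2.08 (SE 0.34) and Rian by 1.92 (SE 0.29). Airn rose by 1.21 (SE 0.44, edgeR adjusted p = 0.0145) on 29 to 62 counts a library in Dounce-Input, and by 0.96, under the fold of 2, without Tissue-Input of mouse 946.

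Set against Cell (-) Inhibitors-Input, which shares no Tissue libraries with the comparison above but does share Dounce-Input, all 9 were again called higher, where 23% of all genes were, with a median of 4.59 against -0.41, and 39.2% of all calls were higher (47.9% and 50.2% with the other scalings). Snhg11 (7.18, SE 0.52), Meg3 (6.92, SE 0.58), Miat (6.07), Mirg (5.47) and Rian (4.59) led, then Kcnq1ot1 (4.25, SE 0.24), Malat1 (2.80, SE 0.36), Neat1 (2.45, SE 0.31) and Airn (1.88, SE 0.45). Here 9 of the 10 neuronal markers were also higher, by a median of 1.94, and the 10 microglial markers were lower, with a median of -1.89.

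In Dounce-TRAP 8 of the 9 were higher than in Tissue-TRAP, where 22.8% of all genes were, with a median of 1.81 against -0.09. Neat1 was at 17.7, 55.3, 29.6 and 26.7 CPM in Tissue-TRAP and at 810, 464, 996 and 483 CPM in Dounce-TRAP, a change of 4.42 (SE 0.34, edgeR adjusted p = 7.50e-13). Kcnq1ot1 was at 88.3 to 148 CPM in Tissue-TRAP and at 890, 1584, 1399 and 1543 CPM in Dounce-TRAP, a change of 3.57 (SE 0.23, edgeR adjusted p = 1.73e-14). Snhg11 (2.04), Meg3 (1.89), Rian (1.81), Mirg (1.52), Miat (1.29) and Airn (1.15) were called with them, the groups overlapping for Mirg and Airn. The call of Airn was lost without Dounce-TRAP of mouse 180 or 181 (0.995 and 0.999). Malat1 changed by 0.77 (SE 0.34, edgeR adjusted p = 0.0455), under the fold of 2. It changed by 1.35 without Tissue-TRAP of mouse 947, a library picked for its high values, so no call is read from this. All 10 neuronal markers were lower in Dounce-TRAP than in Tissue-TRAP, with a median of -2.92, and all 10 microglial markers were higher. Against Cell (-) Inhibitors-TRAP all 9 were higher, where 22.6% of all genes were, with a median of 5.61 against 0.00348 and a range from 1.67 for Airn to 7.50 for Snhg11.

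The warm digestion without inhibitors was set against libraries of the same Tissue mice as in the sort comparison, so that the changes from tissue in both tables share those mice. Against Tissue-Input, Neat1 was the 1 RNA called higher, where 28.3% of all genes were higher, and 5 were called lower, where 16.7% were. The median of the 9 was -2.67, against 0.19 for all genes. Neat1 rose to 343, 294, 684 and 469 CPM in mice 156, 157, 1361 and 1362, by 2.82 (SE 0.32, edgeR adjusted p = 2.67e-09). Meg3 fell by 4.53 (SE 0.52, edgeR adjusted p = 4.51e-09) to 56.9, 54.9, 244 and 132 CPM. Snhg11 (-4.73, SE 0.46), Miat (-4.0, SE 0.38), Mirg (-3.34, SE 0.52) and Rian (-2.67, SE 0.30) fell as well. Kcnq1ot1 changed by -0.87 (edgeR adjusted p = 0.000712), under the fold of 2 but past it without mouse 1361 (-1.27), Malat1 by 0.07 (edgeR adjusted p = 0.867) and Airn by -0.67 (edgeR adjusted p = 0.198). Malat1 was highest in mouse 1361, at 935 CPM, and between 260 and 388 CPM in the other mice.

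In TRAP of the same preparation Neat1 was again called higher, by 1.16 (SE 0.31, edgeR adjusted p = 0.00118), where 20.5% of all genes were higher. Another 6 were lower, where 31.9% were, and the median was -4.09 against -0.23. Snhg11 (-5.47), Meg3 (-5.44), Miat (-5.42), Rian (-5.15) and Mirg (-4.09) led, and Malat1 changed by -1.55 (SE 0.35, edgeR adjusted p = 0.000198). Without Tissue-TRAP of mouse 947 the change of Malat1 was -0.97, and without that of mouse 946 the change of Neat1 was 0.96, both under the fold of 2. The 10 neuronal markers fell in Cell (-) Inhibitors-Input, with a median of -3.59.

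With transcription and translation inhibitors during the digestion no change of the 9 was called in Input, where 0.296% of all genes were called in either direction. None of the 9 was called by edgeR, DESeq2 or limma, and 0 had an unadjusted edgeR p under 0.05. Neat1 was at 332, 252, 297 and 315 CPM with inhibitors, all but 1 of them within the range without inhibitors, and its change was -0.58 (SE 0.29, edgeR adjusted p = 1.0). The fitted changes ran from -0.77 for Meg3 to -0.14 for Airn, with a median of -0.42. In TRAP, where 0.793% of all genes were called, edgeR and limma called 0 of the 9, and 2 had an unadjusted p under 0.05. Neat1 was at 77.3, 36, 95.2 and 80.1 CPM without and at 58.5, 26.1, 50.7 and 34.6 CPM with inhibitors, a change of -0.76 (SE 0.30, edgeR adjusted p = 0.278) with overlapping groups. Mirg, the other of the 2, had 2 to 6 counts a library without inhibitors and 0 in each library with them (edgeR adjusted p = 0.113), and DESeq2's Wald test called it (adjusted p = 0.00563). Differences at such counts rest on a few reads. With the mouse as a replicate block, in a fit of the groups compared only, none was called in either fraction. In TRAP Neat1, at -0.73 and so under the fold of 2, then had an edgeR adjusted p of 0.00129.

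**Figure D3:**
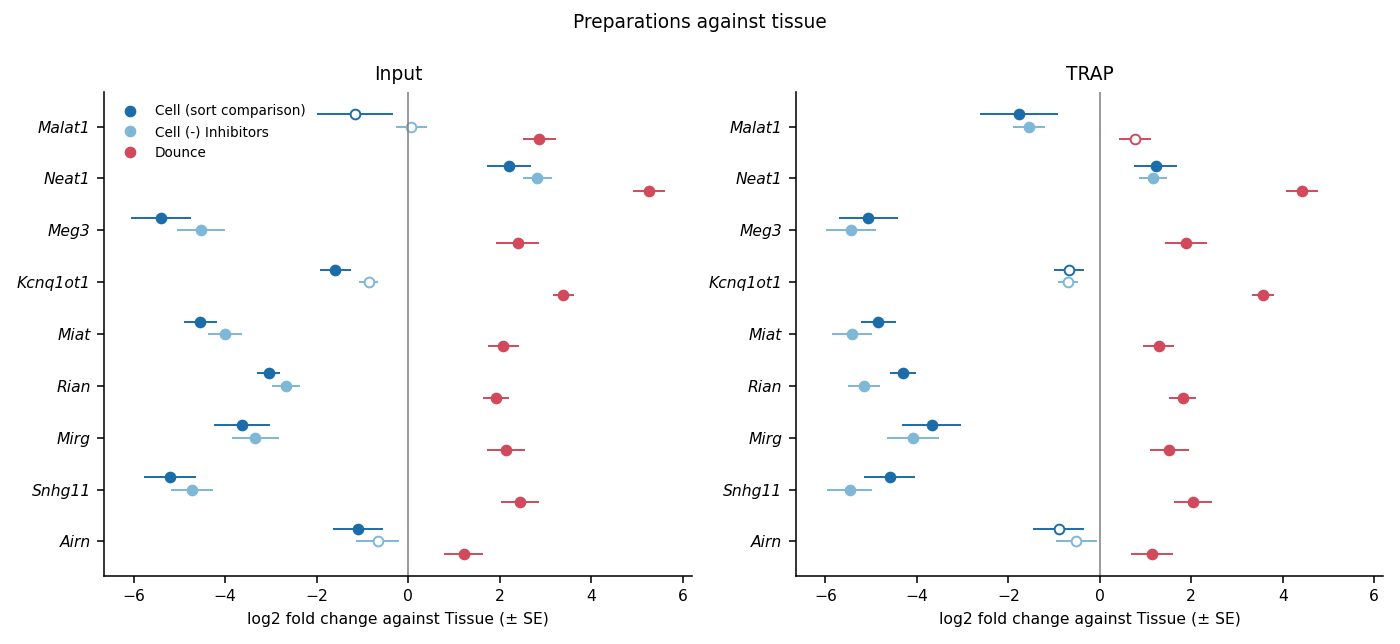
Log2 fold change against Tissue of each of the 9 RNAs in Cell, Cell (-) Inhibitors and Dounce, in Input (left) and TRAP (right), with bars of 1 standard error from edgeR. Filled points passed the threshold and open points did not. Neat1 lies above 0 from tissue to cells where Meg3, Miat, Rian, Mirg and Snhg11 lie below it, and all 9 lie above 0 from tissue to Dounce in both fractions.

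The order of the 8 groups in this table placed Dounce-Input highest for every RNA, without overlap with the next group except for Kcnq1ot1 and Airn. Dounce-TRAP came next for all but Miat, which had Tissue-Input next. Dounce-TRAP lay clear of the group below for Meg3, Rian, Snhg11 and Kcnq1ot1. For Mirg and Airn Dounce-TRAP overlapped with the group below, and for Malat1 and Neat1 with Cell (-) Inhibitors-Input. For Meg3 and Rian the 4 highest groups, Dounce-Input, Dounce-TRAP, Tissue-Input and Tissue-TRAP, each lay clear of the one below. For Neat1 the 3 Input groups other than Dounce-Input did not share this order, since both Cell Inputs lay above Tissue-Input.

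Several sets of related genes were followed beside the 9. Of all 15894 genes, 24.8% were called higher and 4107 lower from Tissue-Input to Dounce-Input, and from Cell-Input to the sorted Inputs 22.8% were called higher. Of 10 nuclear speckle proteins, splicing factors of the body in which Malat1 resides, 8 rose from Tissue-Input to Dounce-Input (median 1.64), with Srsf11 at 2.65 (SE 0.12), Srrm1 at 2.29 and Srsf5 at 2.10. In the sorted Inputs 7 of the 10 rose against Cell-Input, with Srsf6 at 1.47, Srsf5 at 1.43 and Son at 1.38, and from tissue to cells in Input the median was 0.09. Of 12 paraspeckle proteins, which assemble on Neat1, 4 rose and 3 fell in Dounce-Input (median 0.07), with Taf15 at 2.64, Cpsf6 at 1.70 and Ewsr1 at 1.68. In the sorted Inputs 3 rose, with Taf15 at 1.11 and Ewsr1 at 1.11, and from tissue to cells in Input, where Neat1 itself rose, the median was -0.04. Of 12 genes for nuclear export and retention of RNA, 4 rose and 2 fell in Dounce-Input, led by Nxf1 (1.96), the main export receptor of messenger RNA, Thoc2 (1.93) and Thoc1 (1.65), and 2 rose in the sorted Inputs, Thoc2 (1.25) and Zfc3h1 (1.16). The other scalings shift the median of all genes in the sorted Inputs by -0.49 and -0.55, and with either of them 0 speckle, 0 paraspeckle and 0 export genes were called there, with medians of 0.73 and 0.67, 0.35 and 0.28, and 0.36 and 0.30. In Dounce-Input the speckle count stayed at 8 under both, whereas of the paraspeckle proteins 5 rose and 1 fell with DESeq2 size factors and 5 rose and 0 fell with total counts.

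Among imprinted neighbours of Meg3, Rian, Mirg, Kcnq1ot1 and Airn, 3 of 11 tested rose and 6 fell from Tissue-Input to Cell-Input. Of all genes 26.8% were called higher and 19.1% lower in that comparison. Rtl1 (-4.95) and Dlk1 (-3.27), which are among the protein-coding genes of the Meg3 locus, fell with it, as did Mas1 (-4.58), which lies over Airn. In the sorted Inputs 10 of 11 fell, among them Dlk1 (-5.01), where 22.8% of all genes were called higher and 32.7% lower. Dio3 and Mas1 also fell, without a fold because every library of some sorted Inputs held 0 counts of them. In Dounce-Input against Tissue-Input 3 of 10 fell, where 24.8% of all 15894 genes were called higher and 4107 genes lower. With DESeq2 size factors 2 fell and 1 rose, and with total counts 2 fell and 2 rose. Among the 3 were Dlk1 (-2.48) and the cell cycle inhibitor gene Cdkn1c (-2.05), whereas Meg3, Rian and Mirg rose. Of 20 other long noncoding RNAs listed, 10 were in the tables, and the shares of all genes just given apply to their counts as well. From tissue to cells in Input 1 rose and 4 fell, led by A330023F24Rik (-4.51), 2900097C17Rik (-2.13) and Peg13 (-1.89). In the sorted Inputs 1 rose and 4 fell, among them Sox2ot (-5.89) and Rmst. No fold is given for Rmst, at 0 counts in every autoMACS-Input and Tyto-Input library. In Dounce-Input 5 rose and 2 fell, with A330023F24Rik at 3.71, Peg13 at -3.20 and Xist at 3.54 (SE 1.65, edgeR adjusted p = 0.0545), a gene whose level depends on the sex of the mice.

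The markers of other cells moved with the preparations. From tissue to cells in Input all 10 endothelial, 10 oligodendrocyte and 10 microglial markers rose, with medians of 4.45, 2.03 and 4.20, along with 5 of 5 macrophage, 7 of 10 astrocyte and 2 of 5 oligodendrocyte progenitor markers. In Dounce-Input against Tissue-Input 10 of 10 microglial and 5 of 5 macrophage markers rose (medians 2.60 and 1.98), 3 oligodendrocyte markers rose and 1 fell, 1 of 5 oligodendrocyte progenitor markers rose and 1 fell, and 4 astrocyte and 5 endothelial markers fell. The part of cell composition in the levels of the 9 was not tested.

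The ratio of TRAP to Input in the same mouse is what the 9 were chosen on, and the values that follow describe it. A ratio was taken as the log2 of TRAP over Input (each CPM plus 0.5), averaged over the mice of a preparation, and compared with a fold of 2, which is -1 on this scale. The added 0.5 understates the ratio of an RNA at low CPM, as of Rian, Miat and Mirg in the sorted groups. In Tissue 4 of the 9 were over 2-fold lower in TRAP, where 1.57% of all genes were. The counts of the 9 were 4 in Cell (26.1% of all genes), 6 in autoMACS (8.69%), 3 in autoMACS to Tyto (4.45%), 5 in Tyto (7.84%) and 4 in FACSAria (4.71%). In the preparation comparison they were 5 in Tissue (2.1%), 6 in Cell (-) Inhibitors (32.9%), 7 in Cell (+) Inhibitors (32.3%) and 7 in Dounce (28.6%). The 7 in Cell (+) Inhibitors include Mirg, at 0 counts in every TRAP library there, so that the added 0.5 sets its ratio and no value is given. None of the 9 was over 2-fold higher in TRAP in any of the 10 preparations.

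**Figure D4:**
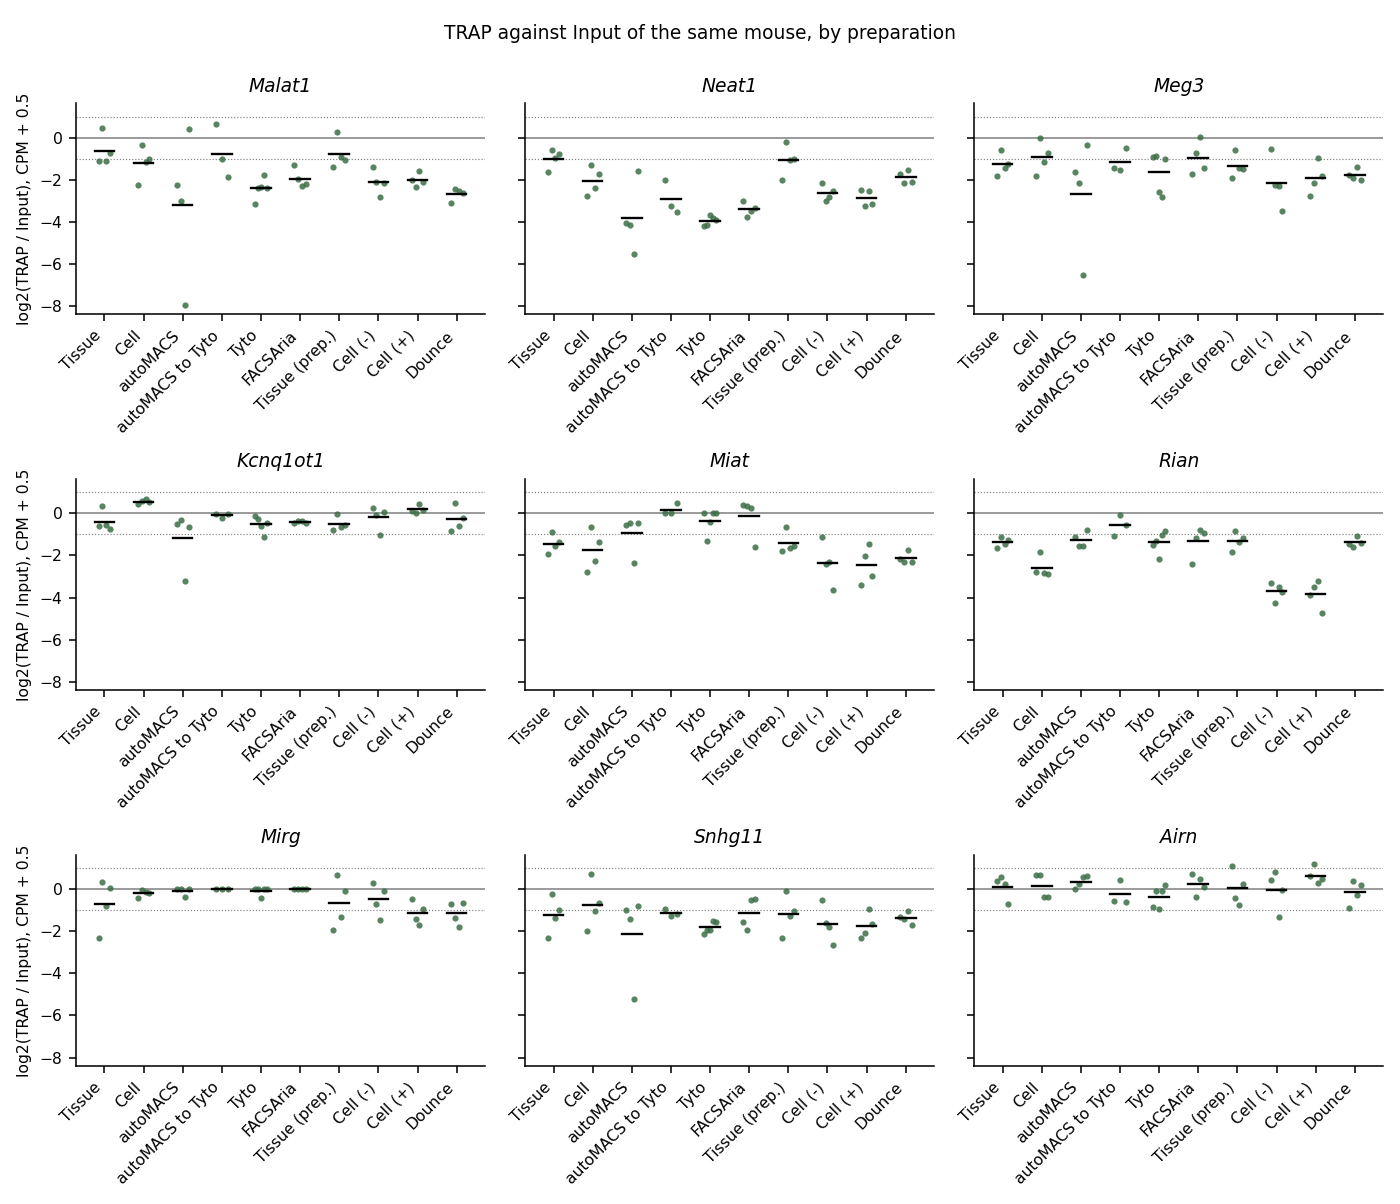
Log2 ratio of TRAP to Input for each of the 9 RNAs in each of the 10 preparations, 1 point per mouse, with lines at the means and dotted lines at a fold of 2 in each direction. Neat1 and Rian lie below 0 in all 40 pairs, and Kcnq1ot1 lies above 0 in Cell.

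Neat1 and Rian were lower in TRAP in 40 of 40 pairs of libraries, Meg3 and Snhg11 in 39, Malat1 in 36, Miat in 31, Kcnq1ot1 in 28, Mirg in 22 and Airn in 17. Most sorted pairs of Mirg and some of Miat held 0 counts in both fractions. Such pairs have a ratio of 0 and are counted here as not lower, although they carry no data. Neat1 had its deepest mean in Tyto, -3.95 ± 0.21 (SD, n = 5), where it was at 425 to 984 CPM in Input and 23 to 70.2 CPM in TRAP. Its mean was -3.41 ± 0.32 in FACSAria, -3.83 ± 1.65 in autoMACS, -2.93 ± 0.82 in autoMACS to Tyto, -2.04 ± 0.66 in Cell, -1.89 ± 0.31 in Dounce and -0.99 ± 0.45 in Tissue. Neat1 was thus nearest to even between the fractions in intact tissue. Summed microglial markers there were at 238 to 364 CPM in Input and 4929 to 6222 CPM in TRAP. In Tyto they were at 32960 to 38750 CPM in Input and 42050 to 47540 CPM in TRAP. The part of this enrichment in the ratios of Neat1 was not tested. Rian was at -3.70 ± 0.43 in Cell (-) Inhibitors, -3.83 ± 0.66 in Cell (+) Inhibitors and -2.59 ± 0.50 in Cell, and lay at -1.37 ± 0.22 in Tissue and -1.38 in Dounce. Its sorted TRAP libraries held too few counts to place those groups in the order. In these suspensions the neuronal markers were lower in TRAP as well, with a median of -1.94 in Cell and -2.40 in Cell (-) Inhibitors against -0.02 in Tissue.

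Malat1 was at -0.62 ± 0.73 in Tissue, where mouse 947 was at 0.43, and at -1.20 in Cell, -2.42 ± 0.48 in Tyto, -1.95 ± 0.45 in FACSAria and -2.67 ± 0.29 in Dounce. In autoMACS it was at -3.20 ± 3.49, an SD larger than the mean, since mouse 72 had 6745 CPM in Input and 26.9 CPM in TRAP. Meg3 ranged from -2.68 in autoMACS to -0.94 in Cell, and was at -1.28 ± 0.53 in Tissue and -1.77 ± 0.28 in Dounce. Miat was at -1.44 ± 0.44 in Tissue and -2.14 ± 0.27 in Dounce. Snhg11 was at -1.24 ± 0.86 in Tissue and -1.82 ± 0.27 in Tyto.

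The mean of Kcnq1ot1 was 0.56 ± 0.10 in Cell, with Input at 42.4, 42.2, 38.6 and 38.2 CPM and TRAP at 56.9, 63.8, 61.7 and 56.7 CPM, so that each mouse was higher in TRAP. With DESeq2 size factors and with total counts this mean was 0.15 and 0.11. In autoMACS it was -1.17 ± 1.35, carried by mouse 72 at -3.19, while mice 66, 67 and 73 were at -0.52, -0.33 and -0.65. The means of Airn lay between -0.36 and 0.64, on few counts.

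Around the threshold, Snhg11 (-1.24) was just inside and Neat1 (-0.99) just outside in Tissue. In Cell these were Malat1 (-1.20) and Meg3 (-0.94), in autoMACS Kcnq1ot1 (-1.17) and Miat (-0.95), and in autoMACS to Tyto Snhg11 (-1.14) and Malat1 (-0.76). They were Rian (-1.38) and Kcnq1ot1 (-0.51) in Tyto and Snhg11 (-1.13) and Meg3 (-0.98) in FACSAria. In the preparation comparison they were Neat1 (-1.08) and Malat1 (-0.78) in Tissue, Snhg11 (-1.64) and Mirg (-0.49) in Cell (-) Inhibitors, Snhg11 (-1.75), beside Mirg, and Kcnq1ot1 (0.19) in Cell (+) Inhibitors, and Mirg (-1.12) and Kcnq1ot1 (-0.28) in Dounce. The median of the 9 ran from -2.11 in Cell (-) Inhibitors to -0.57 in autoMACS to Tyto, where the medians of all genes were -0.34 and -0.05. Of the 10 other long noncoding RNAs in the tables, 1 was over 2-fold lower in TRAP in Tissue, 2 in Cell, 5 in Tyto and 5 in Dounce.

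Genes whose group means followed each RNA most closely were named by Pearson's r over the 12 groups of the sort comparison, with r over the 8 groups of the preparation comparison beside it. These groups share mice and the Input and TRAP of a preparation, so that r is a description. Meg3 was followed by Sh3rf3 (r = 0.993 and 0.924), L1cam, a neuronal adhesion molecule (0.99 and 0.962), and Trank1 (0.989 and 0.999). Miat was followed by A930011O12Rik (0.997 and 0.997), Tenm2 (0.997 and 0.988) and Sema4f (0.996 and 0.967), Rian by Cpt1c (0.996 and 0.955), Brsk2 (0.996 and 0.841) and Dlgap3 (0.996 and 0.742), Snhg11 by Rin1 (0.991 and 0.699), Slc7a14 (0.99 and 0.937) and Sh3rf3 (0.99 and 0.911), and Mirg by Krt9 (0.998 and 0.796), Dlk2 (0.996 and 0.904) and Inha (0.996 and 0.969). Trank1 and A930011O12Rik thus kept the pattern of Meg3 and of Miat in the separate table, whereas Rin1 and Dlgap3 kept less of those of Snhg11 and Rian.

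For Kcnq1ot1 the nearest genes were Pabpn1, a nuclear poly(A)-binding protein (0.961 and 0.959), Erdr1 (0.941 and 0.981) and Trim39 (0.941 and 0.967). For Malat1 they were Slc35e2 (0.98 and 0.968), Eif5 (0.956 and -0.263) and Mtx3 (0.951 and 0.795), for Neat1 B930003M22Rik (0.972 and 0.321), 9430037G07Rik (0.97 and 0.571) and 1700096K18Rik (0.967 and 0.53), and for Airn Pwwp2b (0.926 and -0.49), Setmar (0.903 and 0.254) and 2900056M20Rik (0.882 and 0.393). None of the 3 genes named for Neat1 or of the 3 named for Airn thus stayed near in the other table, where no further genes were followed. Among the 9 themselves Meg3 and Snhg11 were the closest pair (0.996 and 0.999), and Meg3 was also close to Miat (0.982 and 0.995), Mirg (0.967 and 0.991) and Rian (0.973 and 0.967). Malat1 and Neat1, neighbours on the chromosome, were at 0.525 and 0.817, Neat1 and Meg3 at -0.213 and 0.497, and Kcnq1ot1 and Airn at 0.165 and 0.95.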

How the data were processed

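Poly(A)-selected, directional RNA-Seq libraries of 40 Input and 40 TRAP samples were measured. The authors aligned reads to mm10, removed duplicates, and counted and normalized them in Strand NGS, and the submitters' processing notes also name DESeq2. The expected counts deposited by the authors (33.2% whole in the sort table, 20.8% in the preparation table) were rounded. The log2 values deposited by the authors entered only an alternative fit with limma, and the authors' own comparison columns (fold changes and p-values) were not used.

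Each table was fitted separately with edgeR 4.0.16 in R 4.3.3 (TMM, quasi-likelihood, 1 term per group, all 48 or 32 libraries), on genes with over 5 counts in every library of at least 1 group (15825 and 15894 tested). Called genes had a Benjamini-Hochberg adjusted p below 0.1 and a fold above 2. CPM are TMM-normalized. TRAP over Input was taken per mouse as log2 of CPM plus 0.5. Alternatives used DESeq2 1.42.0, limma 3.58.1, other scalings, filters of low counts, each library left out, fits of fewer groups, an earlier table of 24 libraries and a replicate block. The fit was tested on simulated data with 200 changed genes. Python 3.11.15, pandas 2.3.3, numpy 2.4.6 and matplotlib 3.10.9 were used. Counting error and fold precision follow the depths given above, and no fold between groups is given where both held 3 counts or fewer or 1 was at 0.

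The labels gave group and mouse, and the mouse served as replicate number. Same-numbered libraries of Tissue and Cell, and of Cell (-) and Cell (+) Inhibitors, come from the same animal. Their deviations from the group means correlated at -0.00645 to 0.0589 (Tissue and Cell Input), 0.0725 to 0.173 (TRAP), -0.0493 to 0.101 (inhibitors, Input) and 0.0878 to 0.398 (TRAP). No libraries of a group agreed within sampling noise (lowest chi-square per degree of freedom 3.47).

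The 9 members and all lists were chosen with earlier results of these data known. All 9 were described in every group. Lists of 20 other long noncoding RNAs, 12 paraspeckle proteins, 10 nuclear speckle proteins, 12 imprinted neighbours, 12 export and retention genes and the markers of microglia (10), macrophages (5), neurons (10), astrocytes (10), oligodendrocytes (10), oligodendrocyte progenitors (5) and endothelium (10) were given by counts and medians, with up to 3 genes of the largest change named per list and comparison. The 3 genes nearest to each member by Pearson's r over groups, of at least 1 CPM on average, were named. The 6 libraries left out together were picked by eye after seeing the data.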

Additional observations from a re-analysis of the deposited data

Results flagged for a closer look

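Single libraries far from the rest of their group were flagged in 17 of 153 combinations of RNA and group with 4 or more libraries (11.1%), where chance gives about 1 in 20. Input of mouse 72 after autoMACS lay far above the other mice for Malat1 (6745 CPM), Neat1 (2324 CPM), Meg3 (126.2 CPM), Kcnq1ot1 (538.6 CPM), Snhg11 (40.18 CPM) and Miat (2.031 CPM). The TRAP library of mouse 73 from the same sort lay far above its group for Malat1 (479.8 CPM), Neat1 (275.7 CPM), Meg3 (8.638 CPM) and Snhg11 (2.538 CPM). These 2 libraries thus held 10 of the 17 flags.

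The other flags were spread over 7 libraries. Snhg11 stood at 40.29 CPM in Cell-TRAP of mouse 947 and at 3251 CPM in Dounce-TRAP of mouse 181. Kcnq1ot1 stood at 150.8 CPM in Cell (-) Inhibitors-Input of mouse 1361 and at 175.2 CPM in Tissue-Input of mouse 949 in the preparation comparison. Airn stood at 0.7949 CPM in Cell-Input of mouse 949 and at 4.041 CPM in Cell (+) Inhibitors-TRAP of mouse 157, and Miat at 1.144 CPM in Tyto-Input of mouse 69.

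The ratio of TRAP to Input of Kcnq1ot1 was flagged because every mouse of some preparations lay above 0 and every mouse of others below it. The log2 means were 0.56 in Cell and 0.187 in Cell (+) Inhibitors, and -1.17 in autoMACS, -0.10 in autoMACS to Tyto, -0.508 in Tyto, -0.404 in FACSAria and -0.493 in Tissue of the preparation comparison. The difference was not tested.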

How the results depend on the processing

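Of the numbers of RNAs called or past a fold of 2, 348 alternative values stayed within 1.5 times the value reported and 26 did not. With at least 10 counts required in every library, only 3 of the 9 RNAs could be tested in the sort comparison and 6 in the preparation comparison, and the numbers called were 2 (Cell-Input against Tissue-Input), 0 (Sort-Input), 2 (Cell-TRAP), 0 (Sort-TRAP), 3 and 1 (between sorts, Input and TRAP) and 5 (Dounce-TRAP against Tissue-TRAP). Between the sorts in Input 5 became 2 with DESeq2's likelihood ratio test, 1 with limma, 3 in a fit of the groups compared only and 0 without the 6 libraries. Between Cell (+) and Cell (-) Inhibitors in TRAP 0 became 1 (Mirg) with DESeq2, in the earlier table and without the 6 libraries, and the TRAP over Input count of Tissue in the preparation comparison became 3 with no replicate block. The causes were not tested.

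On leaving out each library in turn, the number called was 7 to 8 (Cell-Input against Tissue-Input), 7 to 7 (Sort-Input), 6 to 7 (Cell-TRAP), 5 to 5 (Sort-TRAP), 0 to 5 and 0 to 1 (between sorts, Input and TRAP), 6 to 7 (Cell (-) Inhibitors, Input and TRAP), 0 to 0 and 0 to 1 (inhibitors, Input and TRAP), 8 to 9 and 9 to 9 (Dounce-Input against Tissue and Cell) and 7 to 9 and 9 to 9 (Dounce-TRAP). Between the sorts these rest on autoMACS-Input of mouse 72 (0) and FACSAria-Input of mouse 945 (3) and, in TRAP, on 6 libraries whose omission called Neat1 (1 each). In the inhibitor comparison Cell (-) Inhibitors-TRAP of mouse 157 gave 1. The TRAP over Input counts were 3 to 6 in Tissue and in Cell, 5 to 7 in autoMACS, 2 to 4 in autoMACS to Tyto, 5 to 5 in Tyto, 2 to 5 in FACSAria (2 without mouse 992), 3 to 7 in Tissue of the preparation comparison (3 without mouse 946), 6 to 6 and 6 to 7 in Cell (-) and Cell (+) Inhibitors and 6 to 7 in Dounce.

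Of the values of single RNAs, 3102 stayed the same, 54 lost and 34 gained a call, 30 moved without a test, and 24, none of them called, reversed. A tested change stayed the same if it kept its direction and call. A TRAP over Input ratio, which had no call, did so if it moved by less than its SD over the mice. Reversed were Malat1 in Sort-Input with limma (-0.136), Airn there without Cell-Input of mouse 949 (range over libraries left out -0.467 to 0.269), and in Sort-TRAP Malat1 without Cell-TRAP of mouse 947 (0.281) or 949 (0.0195), autoMACS to Tyto-TRAP of mouse 73 (0.0174) or autoMACS-TRAP of mouse 67 (0.000158; lowest -0.697), and Neat1 without Cell-TRAP of mouse 947 (-0.495 to 0.188). Malat1 in Cell (-) Inhibitors-Input against Tissue-Input gave -0.00619 (DESeq2), -0.0065 (DESeq2 size factors), -0.00947 (total counts), -0.043 (at least 10 counts), -0.185 (limma), -0.0969 (groups compared only), -0.0756 (separate fits), -0.158 (earlier table) and -0.477 (without mouse 1361, or the 6 libraries; highest 0.273). With against without inhibitors in Input, Malat1 gave 0.135 (lowest -0.616) and Mirg 0.559 (lowest -0.823) without mouse 1361 or the 6 libraries, and Miat 0.0678 (lowest -0.731) and Airn 0.0943 (lowest -0.333) without mouse 1362, and in TRAP Miat 0.00764 (lowest -0.71) without mouse 1361. With the replicate block, fitted on the groups compared only, Malat1 from Tissue-Input to Cell-Input was called (-1.20), and no other call of the 9 changed. Malat1 was also called in that fit without the block (-1.21). The shallow Dounce-TRAP libraries and the few counts of Airn and Mirg limit the precision of their values.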
